A study of Parachlorella kessleri with 6 samples.

Results

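Mitochondrial carrier genes were examined in Parachlorella kessleri, a unicellular green alga, after 2 days of culture. They were taken as the assembled genes whose Pfam annotation holds the carrier repeat Mito_carr, which applied to 39 of 22972 rows in the count table. The 3 salt libraries came from cells cultured under salt stress, at a concentration not given in the sources used here, and the 3 control libraries from cells cultured under control conditions. The comparison asks which carriers differ between salt-stressed and control cells. No strain or genotype difference between the groups is given in the labels. A row is a Trinity identifier, the unit of a de novo transcript assembly, and its name is that of its best match in another organism. Such a name does not establish what the protein carries in this alga.

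Proteins of this family sit mostly in the inner mitochondrial membrane and exchange nucleotides, phosphate, organic acids, amino acids and cofactors between the matrix and the cytosol. A typical carrier is built from 3 copies of the same repeat, and relatives work in plastids, peroxisomes and thylakoids. ADP/ATP and phosphate carriers serve ATP export, tricarboxylate carriers move carbon skeletons, and uncoupling proteins can let protons re-enter the matrix without ATP synthesis. Of the 39 rows, 15 had a Swissprot name with one of the 7 substrates considered here, 6 had the name of another carrier, 12 had no Swissprot name and 6 had the Swissprot name of a protein that is not a mitochondrial carrier. The label "mitochondrial" therefore did not hold for every row by name: S-adenosylmethionine carrier 1 is placed in plastids and mitochondria, folate transporter 1 in plastids and another carrier in thylakoids. KEGG names of the carrier family SLC25 were given for 27 rows.

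Library totals were 19849594 to 21654407 counts in salt and 16460455 to 24065705 counts in control. Salt replicate 1 differed from the other salt libraries by a chi-square of 61.4 and 50.9 per gene, against 33.9 between salt replicates 2 and 3. Control replicate 1 stood further apart, with 175 and 151 against 5.43 between control replicates 2 and 3. The labels do not say whether replicates came from separate cultures, so the spread behind each p-value may be technical. Of 11438 genes tested with edgeR, 57.8% changed in salt, 29.1% raised and 28.7% lowered. With library totals in place of TMM scaling, 60.5% of the called genes were raised (4064 against 2658 lowered), in place of 50.3%, and the median log2 fold change of all genes moved by 0.18. All levels are shares of a library, so less RNA of a gene per cell and more RNA of other genes cannot be told apart.

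Of 37 carrier rows tested, 18 were raised and 13 lowered in salt and 6 were not called. This is 83.8% changed, against 57.8% of all tested genes and 61.1% of the 7871 genes whose mean level was at or above that of the lowest tested carrier row (16.6 CPM, that is, counts scaled to the TMM-adjusted library size). Of those genes 30.4% were raised and 30.7% lowered. They share the lowest level of the carrier rows but were not matched to them in level. The median mean level was 98.2 CPM over the tested carrier rows and 39.4 CPM over all tested genes. Changes of at least 2-fold were called for 6 raised and 2 lowered rows, against 15.9% and 17.7% of all tested genes. The median log2 fold change was 0.34 over the carrier rows and 0.01 over all tested genes, and the median size of the change was 0.73 and 0.70. Thus many carrier rows moved, in both directions, mostly by less than 2-fold. The salt and control libraries did not overlap in any of the 31 called rows, nor in 1 row that was not called. These 32 rows are 86.5% of those tested, against 66.7% of all tested genes and 70.3% of those at or above the same level. All 31 called rows had the same sign between the replicate 1 libraries and among replicates 2 and 3. As their groups did not overlap, this was fixed in advance and adds no support. The median over the tested carrier rows was 0.26 between the replicate 1 libraries and 0.36 among replicates 2 and 3. With replicates 2 and 3 alone, 20 carrier rows were raised and 13 lowered, against 35.8% and 33.2% of all genes in that fit.

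**Figure D1:**
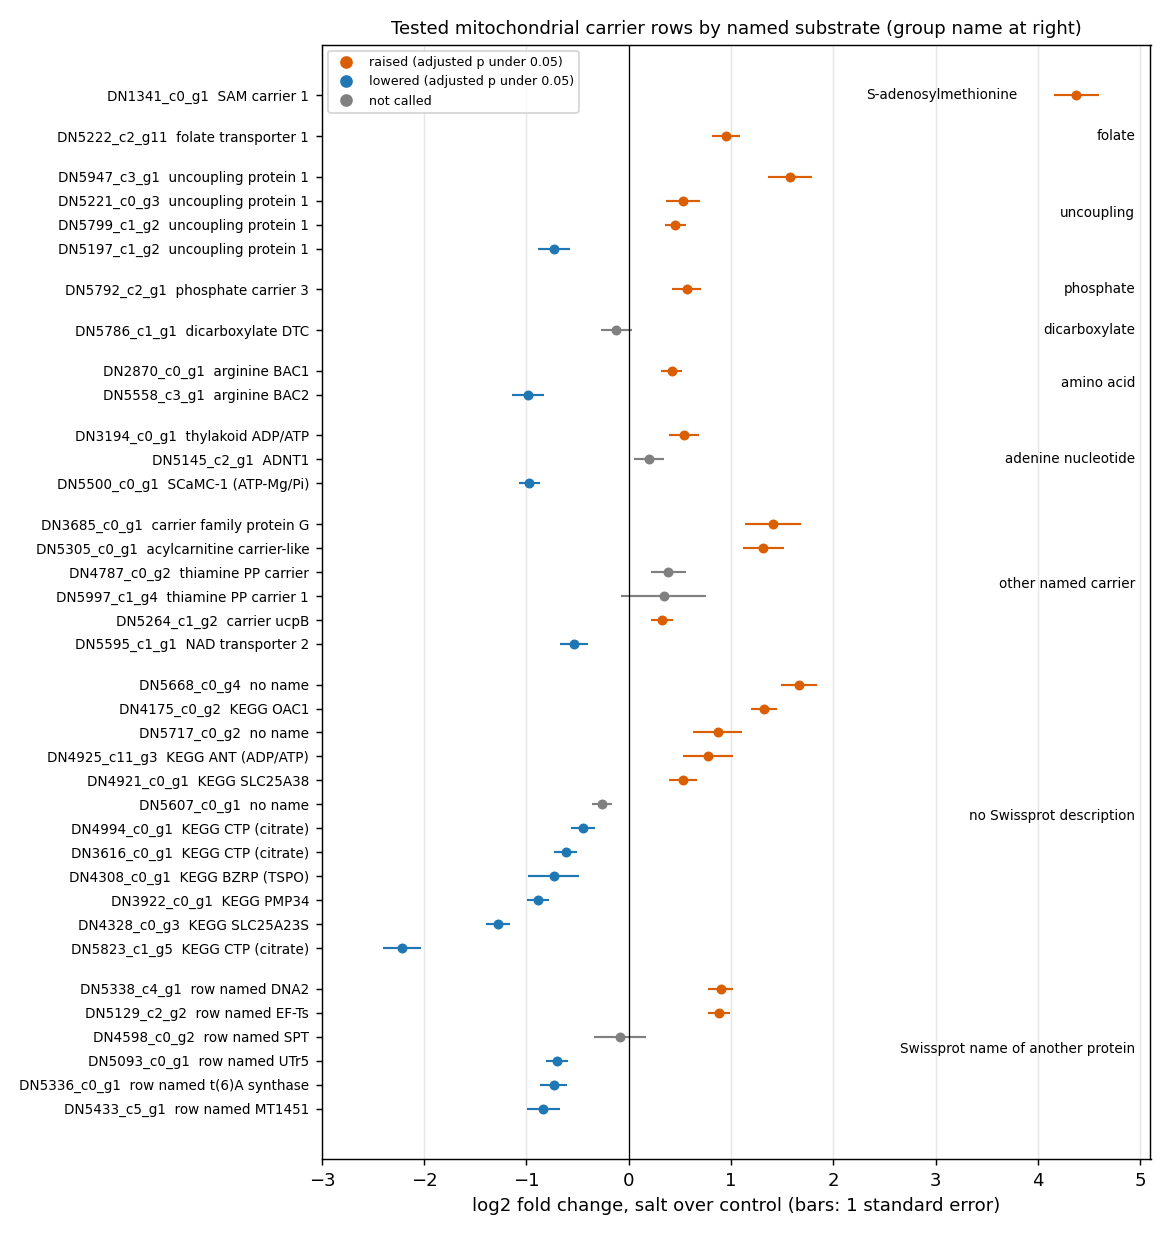
Log2 fold change (salt over control, x axis) of the 37 tested carrier rows, grouped by the substrate in the Swissprot name, with bars of 1 standard error from edgeR on 3 salt and 3 control libraries. The S-adenosylmethionine row at 4.37 lies furthest to the right and the row with the KEGG name CTP at -2.22 furthest to the left.

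The rows with a Swissprot name for a carrier of S-adenosylmethionine or folate were both higher in salt. S-adenosylmethionine carrier 1 (TRINITY_DN1341_c0_g1) is the homologue of an Arabidopsis protein that brings the methyl donor S-adenosylmethionine into plastids and mitochondria in exchange for its demethylated product. It had 33.8, 28.5 and 40.2 CPM in salt replicates 1 to 3, against 1.92, 1.60 and 1.38 CPM in control replicates 1 to 3. Every salt library was far above every control library, and the control values rested on only 40, 32 and 22 counts. The log2 fold change was 4.37 (SE 0.22, adjusted p = 2.47e-05 by edgeR), or 20.7-fold, the largest among the carrier rows. It was 4.07 between the replicate 1 libraries and 4.52 among replicates 2 and 3. The row holds 3 carrier repeats in 1 reading frame and no other domain, and it is alone in its Trinity cluster, the set of rows that share an identifier up to its last part.

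Folate transporter 1 (TRINITY_DN5222_c2_g11), named for an Arabidopsis plastid carrier of the one-carbon cofactor folate, had 23.7, 19.9 and 22.1 CPM in salt and 11.7, 10.9 and 11.3 CPM in control. The 3 salt libraries were all about double the controls in level, with little spread in either group. Its log2 fold change was 0.95 (SE 0.14, adjusted p = 0.00123 by edgeR). The row shares its Trinity cluster with 13 other rows, several of them named for the ATPase CDC48. The summed cluster changed by -0.066 (adjusted p = 0.524 by edgeR). KEGG gives folate transporter 1 the name MFT, which it shares with NAD transporter 2 (TRINITY_DN5595_c1_g1). That more abundant row was lower in salt (log2 fold change -0.53, SE 0.14, adjusted p = 0.0134 by edgeR).

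Uncoupling protein 1 was the Swissprot name of 4 rows, and 3 of these rose while 1 fell in salt. The Arabidopsis protein of this name lets protons leak back into the matrix. The row with the clearest change (TRINITY_DN5947_c3_g1) had 103, 123 and 68.9 CPM in salt, against 33.8, 30.3 and 34.9 CPM in control. Salt replicate 3 was the lowest of the salt libraries and still above every control. The log2 fold change was 1.57 (SE 0.22, adjusted p = 0.000907 by edgeR), or 2.98-fold. The only other row of its cluster, TRINITY_DN5947_c3_g2, holds a domain of the photosystem II subunit PsbX and was more abundant, with 1306, 1161 and 1288 CPM in salt and 418, 631 and 611 CPM in control. That neighbour also rose, by a log2 fold change of 1.18.

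The most abundant row of this name (TRINITY_DN5799_c1_g2) had 177, 166 and 180.5 CPM in salt and 121, 134 and 128 CPM in control. The groups did not overlap, but the rise was small (log2 fold change 0.46, SE 0.10, adjusted p = 0.00724 by edgeR), and the summed cluster gave 0.47 with an adjusted p of 0.0715. Another row (TRINITY_DN5221_c0_g3) holds 1 carrier repeat and, in another reading frame, the domain of unknown function DUF760. It was at 156 to 175 CPM in salt and 97.9 to 141 CPM in control (0.53, SE 0.17, adjusted p = 0.0283 by edgeR). Its call was lost without salt replicate 1, 2 or 3 or control replicate 2 or 3 (adjusted p from 0.0513 to 0.101, with log2 fold changes of 0.44 to 0.57). The last (TRINITY_DN5197_c1_g2), which carries a Fasciclin domain in another reading frame, went the other way, with 89.6, 77.8 and 69.2 CPM in salt and 154, 119.6 and 118 CPM in control (-0.73, SE 0.16, adjusted p = 0.00633). Summed over the 4 rows, the level was 526, 525 and 494 CPM in salt and 449.9, 383 and 378 CPM in control.

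**Figure D2:**
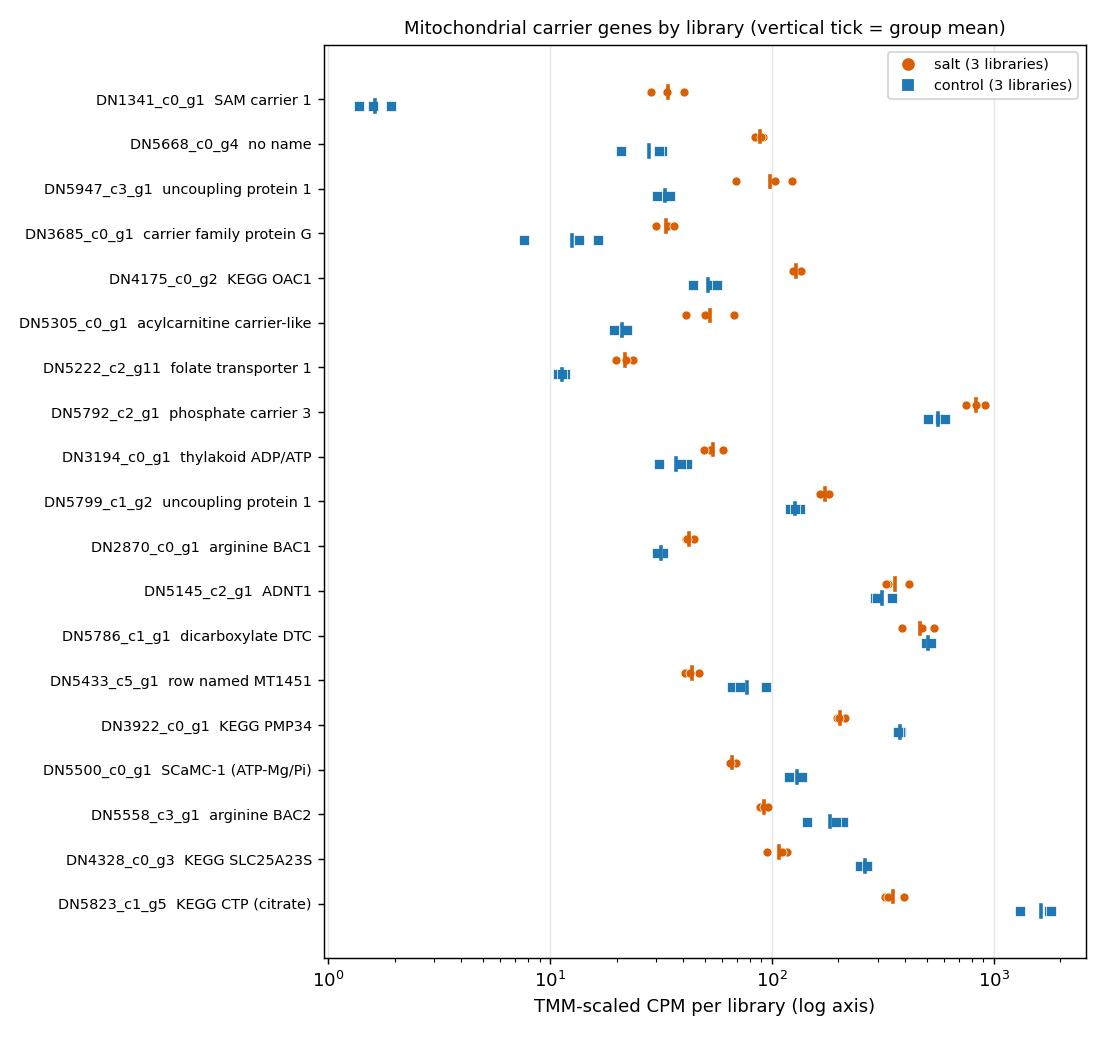
TMM-scaled CPM (x axis, log scale) of the 19 carrier rows named by rule, with 1 point per library and a vertical tick at the group mean, salt above control for each row. The libraries of the 2 groups overlap only for ADNT1 and the dicarboxylate carrier DTC.

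The phosphate carrier rose in salt, and the row annotated as the ADP/ATP carrier was called higher with less support. Mitochondrial phosphate carrier 3 (TRINITY_DN5792_c2_g1), which imports the phosphate used by ATP synthase, had 912, 749 and 835 CPM in salt and 507, 575 and 604 CPM in control. All salt libraries were above all controls. The log2 fold change was 0.57 (SE 0.14, adjusted p = 0.0124 by edgeR), or 1.48-fold, with 0.85 between the replicate 1 libraries and 0.43 among replicates 2 and 3. A short row with the KEGG name ANT, the ADP/ATP carrier that exports ATP from the matrix (TRINITY_DN4925_c11_g3), had 569, 315 and 387 CPM in salt and 201, 270.5 and 272 CPM in control (0.77, SE 0.24, adjusted p = 0.0296). Salt replicate 1 was the highest library, and the call was not kept with the replicate number as a block (0.74, adjusted p = 0.0573). It was also lost without salt replicate 1 (0.51, adjusted p = 0.0730) or 3 (0.85, 0.0548), or control replicate 1 (0.65, 0.0569), 2 (0.84, 0.0563) or 3 (0.84, 0.0586). The summed cluster was called, at 0.76 (adjusted p = 0.0318). Its effective length is 87 bases, so it covers only a piece of a transcript. In its cluster, 2 more rows with the KEGG name ANT but no carrier domain (TRINITY_DN4925_c11_g1 and TRINITY_DN4925_c11_g2) had log2 fold changes of 0.71 and 0.80 that were not called (adjusted p = 0.0528 and 0.137).

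Among 3 tested rows with a Swissprot name for an adenine nucleotide carrier, 1 rose, 1 fell and 1 was not called. The row that fell is named SCaMC-1 (TRINITY_DN5500_c0_g1), after mammalian carriers that exchange ATP-Mg for phosphate under the control of calcium. EF-hand domains, which bind calcium, lie in the same reading frame as its 3 carrier repeats, while an amidase domain lies in another frame of this long row. It had 65.3, 68.9 and 65.0 CPM in salt and 119, 134 and 137 CPM in control, tight groups that did not overlap (log2 fold change -0.97, SE 0.10, adjusted p = 0.000319 by edgeR). KEGG gives SCaMC-1 the name SLC25A23S, which it shares with 3 other tested rows that hold the carrier domain. One of these, without a Swissprot name (TRINITY_DN4328_c0_g3), was lower, with 118, 111 and 95.5 CPM in salt and 269, 249 and 269 CPM in control. Its log2 fold change was -1.28 (SE 0.12, adjusted p = 0.000191). The thylakoid carrier was raised and ADNT1 was not called. Among rows with the carrier domain, the name thus covered 2 lowered rows, 1 raised row and 1 uncalled row. A short row with this name but no carrier domain (TRINITY_DN5145_c2_g4), in the cluster of ADNT1, was also lower. Its log2 fold change was -2.23 (SE 0.59, adjusted p = 0.0153 by edgeR), on 2 to 37 counts per library.

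The thylakoid ADP,ATP carrier (TRINITY_DN3194_c0_g1), whose Arabidopsis homologue lies in chloroplast membranes and whose row also holds a SET domain in another reading frame, had 60.1, 53.0 and 49.5 CPM in salt and 31.2, 41.7 and 38.9 CPM in control. Control replicate 1 was the lowest library. The log2 fold change was 0.54 (SE 0.15, adjusted p = 0.0186 by edgeR), and 0.47 without salt replicate 1, when the call was lost (adjusted p = 0.0589). ADNT1 (TRINITY_DN5145_c2_g1), named for an Arabidopsis carrier that exchanges adenine nucleotides across the mitochondrial membrane, had 417, 333 and 327 CPM in salt and 348, 293 and 298 CPM in control. The groups overlapped, and the difference was not called (0.20, SE 0.15, adjusted p = 0.283). It passed the threshold with library totals as the scaling (0.38, adjusted p = 0.0246).

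The organic acid carriers held the largest fall. A row with the KEGG name CTP (TRINITY_DN5823_c1_g5), the citrate transport protein that exports citrate in exchange for malate, had 396, 323 and 334 CPM in salt and 1320.0, 1774 and 1812 CPM in control. Even the lowest control library was more than 3 times the highest salt library in level. The log2 fold change was -2.22 (SE 0.18, adjusted p = 0.000121 by edgeR), or 4.66-fold lower in salt. It was -1.74 between the replicate 1 libraries, -2.44 among replicates 2 and 3, and -1.78 for the summed cluster of 9 rows. The row carries 3 carrier repeats in 1 reading frame and no other domain.

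Most of the difference in the summed level of the tested rows lay in that row. The sum includes the rows named for another protein, whose counts may not belong to a carrier, and no sum was made without them. It made up 5.87%, 5.50% and 5.34% of the summed CPM of the 37 tested rows in salt and 16.8%, 22.3% and 22.4% in control. The sum was 6743, 5867 and 6258 CPM in salt, against 7844, 7952 and 8089 CPM in control. Without it, the other 36 rows summed to 6347, 5544 and 5924 CPM in salt and 6524, 6178 and 6277 CPM in control, and the groups overlapped on this scale. On the FPKM scale, over rows of at least 300 bases, the sum without that row was 2379, 2029 and 2214 in salt and 1938, 2202 and 2135 in control, with a higher mean in salt (2207) than in control (2092) and overlapping groups.

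**Figure D3:**
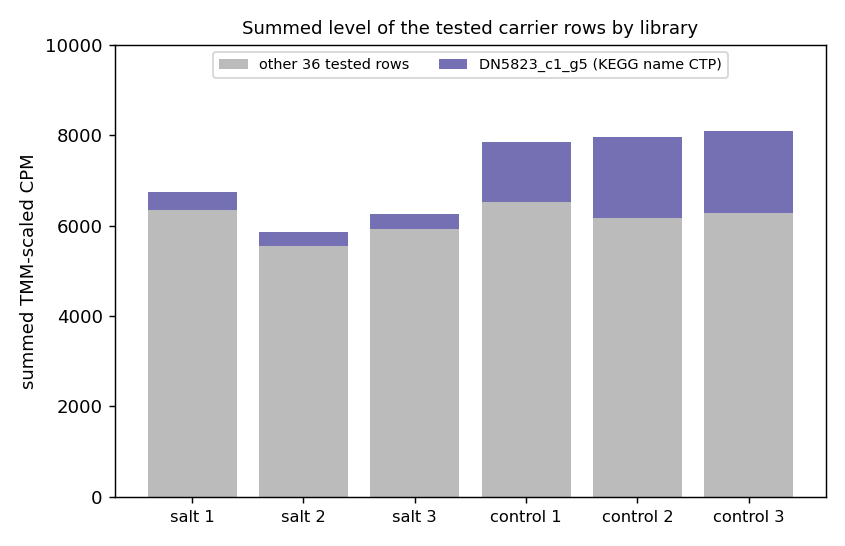
Summed TMM-scaled CPM of the 37 tested carrier rows in each library (y axis, from 0), with TRINITY_DN5823_c1_g5 stacked on the other 36 rows. The stacked part is 323 to 396 CPM in salt and 1320.0 to 1812 CPM in control, while the other rows lie between 5544 and 6524 CPM in all 6 libraries.

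Of 3 other rows with the KEGG name CTP, 2 were lower in salt as well, by less, and 1 was higher. TRINITY_DN3616_c0_g1 had 58.3, 56.2 and 65.0 CPM in salt and 97.2, 91.7 and 86.5 CPM in control (log2 fold change -0.62, SE 0.11, adjusted p = 0.00281 by edgeR). TRINITY_DN4994_c0_g1, a row that also holds a lipase domain in another reading frame, had 49.7 to 57.1 CPM in salt and 67.6 to 79.2 CPM in control (-0.44, SE 0.12, adjusted p = 0.0145). Its call was lost without salt replicate 3 (-0.42, adjusted p = 0.0605), with library totals (-0.25, 0.109) and with no filter on low counts (-0.40, 0.0598), while its summed cluster changed by -1.14. The remaining row with this KEGG name, carrier family protein G (TRINITY_DN3685_c0_g1), is named in Swissprot for a Dictyostelium protein and moved in the opposite direction. It had 30.1, 34.0 and 36.2 CPM in salt and 7.67, 16.5 and 13.5 CPM in control (1.41, SE 0.28, adjusted p = 0.00424), with control replicate 1 the lowest library. The CTP name thus covered 3 lowered rows and 1 raised row.

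The only row with dicarboxylate in its Swissprot name, the dicarboxylate/tricarboxylate transporter DTC (TRINITY_DN5786_c1_g1), had 537, 386 and 474 CPM in salt and 503, 496 and 522 CPM in control. The groups overlapped, with both the highest and the lowest library in salt, and the difference was not called (log2 fold change -0.12, SE 0.15, adjusted p = 0.515 by edgeR). The sign was positive without salt replicate 2 (0.011) and with library totals (0.057). This row also carries an acyltransferase domain in another reading frame, and KEGG names it plsC, so its counts may belong in part to another protein. OAC1, named by KEGG for the yeast oxaloacetate carrier (TRINITY_DN4175_c0_g2), in a row that also holds an ADP-ribosylglycohydrolase domain in another reading frame, rose, with 127, 135 and 125 CPM in salt and 44.4, 53.7 and 56.7 CPM in control (1.32, SE 0.13, adjusted p = 0.000196). Its groups were far apart, and the summed cluster gave nearly the same change (1.31).

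The 2 carriers named for basic amino acids moved apart. Arabidopsis BAC1 and BAC2 carry arginine and related amino acids across the inner mitochondrial membrane. BAC1 (TRINITY_DN2870_c0_g1) had 44.7, 41.1 and 41.4 CPM in salt and 32.1, 32.5 and 30.5 CPM in control, a small and even rise (log2 fold change 0.42, SE 0.11, adjusted p = 0.0136 by edgeR). It lost its call without control replicate 3 (0.39, adjusted p = 0.0605), and its row has a domain of unknown function in another reading frame. BAC2 (TRINITY_DN5558_c3_g1) had 88.6, 92.5 and 96.6 CPM in salt and 144, 209 and 196 CPM in control (-0.98, SE 0.16, adjusted p = 0.00171). All its salt libraries lay below the lowest control, replicate 1. The row also holds glutathione S-transferase domains in another reading frame, and KEGG names it GST, so its counts may belong in part to that protein. Its cluster includes chlorophyll synthase (TRINITY_DN5558_c3_g5), at 193 to 229 CPM in salt and 13.5 to 34.7 CPM in control, and the summed cluster changed by 0.49 (adjusted p = 0.0135), opposite in sign. SLC25A38 (TRINITY_DN4921_c0_g1), by KEGG name the carrier that brings glycine into mitochondria for heme synthesis in human and yeast cells, had 21.7 to 24.3 CPM in salt and 14.6 to 17.1 CPM in control (0.53, SE 0.14, adjusted p = 0.0135).

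Of the 6 rows with the name of another carrier, 3 rose, 1 fell and 2 were not called. The acylcarnitine carrier-like row (TRINITY_DN5305_c0_g1), whose Arabidopsis namesake is needed for photorespiratory metabolism, had 49.8, 67.9 and 41.0 CPM in salt and 19.5, 22.05 and 22.3 CPM in control. The salt libraries varied more than the controls but did not overlap with them (log2 fold change 1.31, SE 0.20, adjusted p = 0.00141 by edgeR). The row with the Dictyostelium name ucpB (TRINITY_DN5264_c1_g2) has the KEGG name GLG1 and a Cys_rich_FGFR domain in another reading frame. Its counts may therefore belong in part to another protein. The row rose by 0.33 (SE 0.11, adjusted p = 0.0345 by edgeR). That call was lost without salt replicate 1, 2 or 3 or control replicate 2 or 3 (adjusted p 0.0615, 0.0849, 0.0823, 0.0922 and 0.0527, with log2 fold changes of 0.33 to 0.38), and with no filter on low counts (0.0617). NAD transporter 2 (TRINITY_DN5595_c1_g1), named for an Arabidopsis mitochondrial carrier of the redox cofactor, had 227, 233 and 234.5 CPM in salt and 393, 300.04 and 312 CPM in control. It was lower in every salt library (-0.53, SE 0.14, adjusted p = 0.0134), but not called without salt replicate 2 (-0.52, adjusted p = 0.0519) or 3 (-0.53, 0.0547), nor for the summed cluster (-0.10, 0.531).

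Both rows named for carriers of thiamine pyrophosphate, the cofactor of pyruvate dehydrogenase, were uneven among controls. TRINITY_DN4787_c0_g2 had 30.0, 35.7 and 35.6 CPM in salt and 31.7, 22.8 and 23.0 CPM in control. TRINITY_DN5997_c1_g4 had 62.5, 36.1 and 56.1 CPM in salt and 69.1, 27.5 and 25.3 CPM in control. In each, control replicate 1 was the highest control. It lay within the salt range in the first row and above every salt library in the second. Neither was called (log2 fold change 0.38 and 0.34, adjusted p = 0.0936 by edgeR and 0.511). Without control replicate 1 both were raised, by 0.57 (adjusted p = 0.00731) and 0.97 (0.0127). The first was also raised with upper-quartile factors (0.49, adjusted p = 0.0302) and with library totals (0.59, 0.0181).

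Among the remaining rows without a Swissprot name, TRINITY_DN3922_c0_g1 fell. KEGG names it PMP34, a mammalian peroxisomal carrier of nucleotide-type cofactors. It had 214.5, 197 and 201 CPM in salt and 381, 380.0 and 372 CPM in control (log2 fold change -0.89, SE 0.10, adjusted p = 0.000452 by edgeR). The groups were narrow and far apart. A row with carrier repeats and no other annotation (TRINITY_DN5668_c0_g4) had 84.3, 91.7 and 89.9 CPM in salt and 21.0, 32.1 and 31.0 CPM in control (1.66, SE 0.18, adjusted p = 0.000325), but the 12 rows of its cluster together gave 0.53. Another (TRINITY_DN5717_c0_g2) rose by 0.87 (SE 0.24, adjusted p = 0.0178), with 1.62 between the replicate 1 libraries and 0.58 among replicates 2 and 3. It was not called without salt replicate 1 (0.82, adjusted p = 0.0587), and its summed cluster changed by -0.07. TRINITY_DN5607_c0_g1, which also holds a poly(A) polymerase domain, had 85.7 to 91.9 CPM in salt and 100.3 to 112 CPM in control without overlap and was not called (-0.26, SE 0.10, adjusted p = 0.0566).

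For 7 rows the Swissprot name, or the KEGG name where there was none, is that of another protein, so the direction cannot be credited to the carrier. Rows named elongation factor Ts (TRINITY_DN5129_c2_g2) and the helicase DNA2 (TRINITY_DN5338_c4_g1) rose, by log2 fold changes of 0.88 and 0.90, the first with a summed cluster of -0.37 (adjusted p = 0.00952 by edgeR). Rows named for a bacterial methyltransferase (TRINITY_DN5433_c5_g1), a tRNA threonylcarbamoyltransferase (TRINITY_DN5336_c0_g1) and a UDP-galactose transporter (TRINITY_DN5093_c0_g1) fell, by log2 changes of -0.84, -0.73 and -0.70. The first of these had 40.8, 46.9 and 42.9 CPM in salt and 94.7, 66.2 and 72.3 CPM in control (SE 0.16, adjusted p = 0.00382). Its salt libraries were all below the controls, of which replicate 1 was the highest. A row with the KEGG name BZRP and a TspO domain (TRINITY_DN4308_c0_g1) had 387, 293 and 353 CPM in salt and 804, 446 and 470 CPM in control. Control replicate 1 stood well above the rest. The change was -0.74 (SE 0.25, adjusted p = 0.0415), and the call was lost without salt replicate 1 (-0.82, 0.0668), 2 (-0.62, 0.139) or 3 (-0.74, 0.107) and with library totals (-0.53, 0.0596). Without control replicate 1 it was -0.40 (adjusted p = 0.0371). A row named serine-pyruvate aminotransferase (TRINITY_DN4598_c0_g2) also has the KEGG carrier name SLC25A20_29 and 3 carrier repeats in 1 reading frame. It had 343, 279 and 366 CPM in salt and 226, 423 and 399 CPM in control and was not called (-0.09, SE 0.25, adjusted p = 0.791). Its sign was positive without salt replicate 2 (0.04) or control replicate 2 (0.07) or 3 (0.02), with library totals (0.08), and between the replicate 1 libraries (0.60).

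The assembly limited how far a row stands for a single carrier. A full set of 3 repeats in 1 reading frame was found in 14 of the 39 rows, at most 2 in 13 and 1 in 12. Among tested rows, 6 of 13 with the full set rose and 5 fell, while 5 and 4 of 13 rows with 2 repeats and 7 and 4 of 11 rows with 1 repeat rose and fell. Domains of another protein in another predicted reading frame were present in 18 rows, of which 7 rose, 8 fell and 3 were not called. The 19 tested rows without such a domain comprised 11 raised, 5 lowered and 3 uncalled ones. The median change on the log2 scale was -0.19 in the 18 shared rows and 0.53 in the other 19. Whether the second protein in a row accounts for its change was not tested.

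Clusters gave a second view. In clusters of several rows there were 24 called carrier rows, of which 18 had a summed cluster that was also called with the same sign, 2 had the same sign but no call, and 4 had the opposite sign. The 4 were folate transporter 1, BAC2, the elongation factor Ts row and TRINITY_DN5717_c0_g2. In 3 of the 4, rows named for unrelated proteins shared the cluster, and in that of the elongation factor Ts row the most abundant neighbour (TRINITY_DN5129_c2_g1) holds domains of the trafficking protein Mon2, so that the sum is not a sum over copies of the carrier. The 7 carrier rows alone in their cluster included 4 raised rows (the S-adenosylmethionine, phosphate, thylakoid ADP,ATP and SLC25A38 carriers) and 3 lowered ones.

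**Figure D4:**
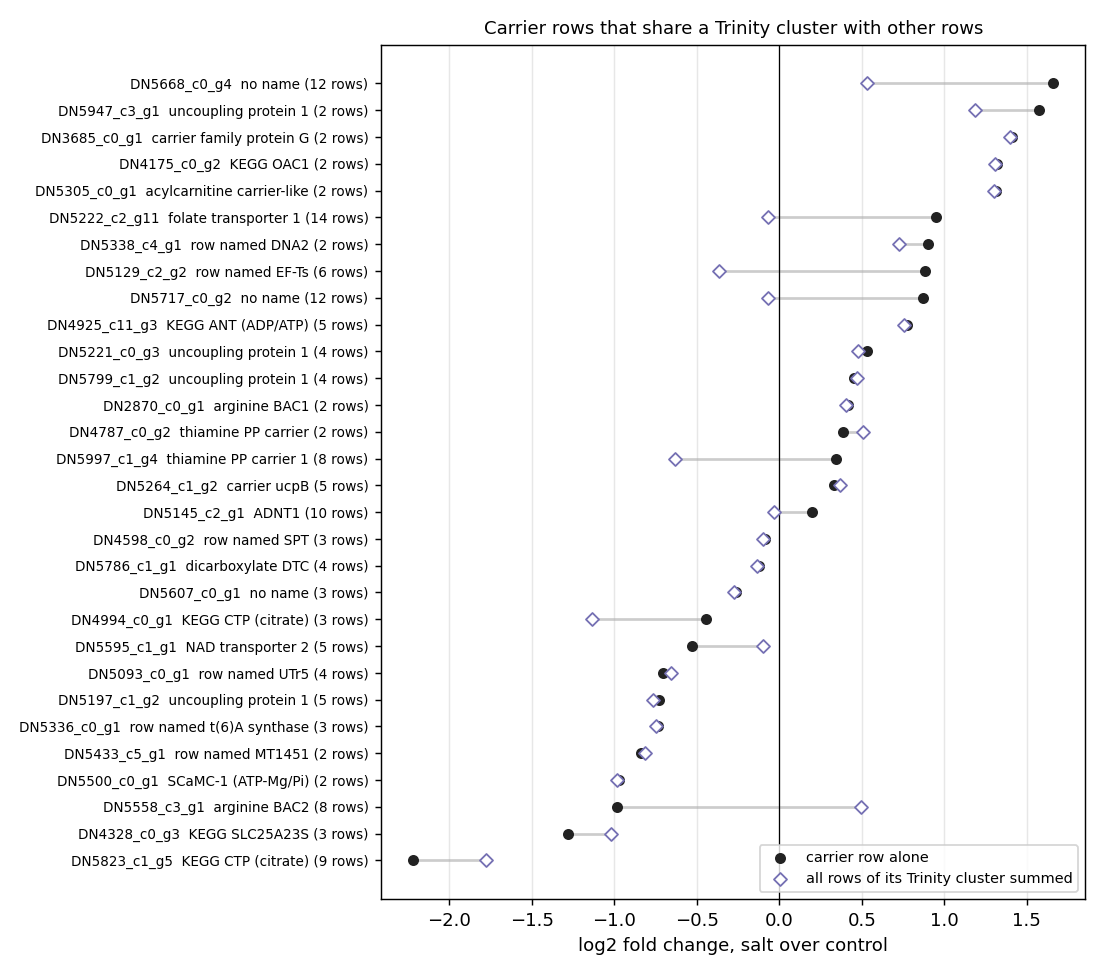
Log2 fold change (salt over control, x axis) of each of the 30 tested carrier rows that share a Trinity cluster with other rows (filled circles), joined to that of all rows of the cluster summed (open diamonds). Many pairs lie close together, while others share the sign but lie apart, such as TRINITY_DN5668_c0_g4 (1.66 and 0.53). The signs differ for folate transporter 1 (0.95 and -0.066), BAC2 (-0.98 and 0.49), the elongation factor Ts row (0.88 and -0.37) and TRINITY_DN5717_c0_g2 (0.87 and -0.07). Among uncalled rows they differ for ADNT1 (0.20 and -0.031) and TRINITY_DN5997_c1_g4 (0.34 and -0.63).

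Levels between genes were compared on the deposited FPKM scale, which divides by transcript length, for the 36 rows of at least 300 bases. Phosphate carrier 3 was the highest in salt, at 471 ± 55.6 FPKM (mean ± SD, n = 3), followed by ADNT1 at 231 ± 34.4 and the CTP row TRINITY_DN5823_c1_g5 at 193 ± 29.6 FPKM. In control the order at the top differed. The CTP row was first at 883 ± 208 FPKM, above phosphate carrier 3 at 313 ± 55.1 FPKM, the TspO-domain row at 249 ± 61.5 FPKM and ADNT1 at 198 ± 3.72 FPKM. In salt the libraries of ADNT1 (208 to 270.2 FPKM) and of the CTP row (169.5 to 227 FPKM) overlapped. In control those of phosphate carrier 3 (249 to 346 FPKM) and of the TspO-domain row (213 to 320.2 FPKM) overlapped, while both lay above every ADNT1 library (194 to 202 FPKM). The S-adenosylmethionine carrier, the lowest of the 36 in control at 1.39 ± 0.155 FPKM, was in the middle of the range in salt, at 30.0 ± 5.61 FPKM. SCaMC-1 was the lowest in salt, at 10.5 ± 0.314 FPKM. FPKM divides by the length of the whole row, which in 18 rows also holds domains of another protein. The SCaMC-1 row, with an amidase domain in another reading frame, has an effective length of 6211 bases and a mean of 66.4 CPM in salt. Ranks of such rows may therefore not be those of the carriers.

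**Figure D5:**
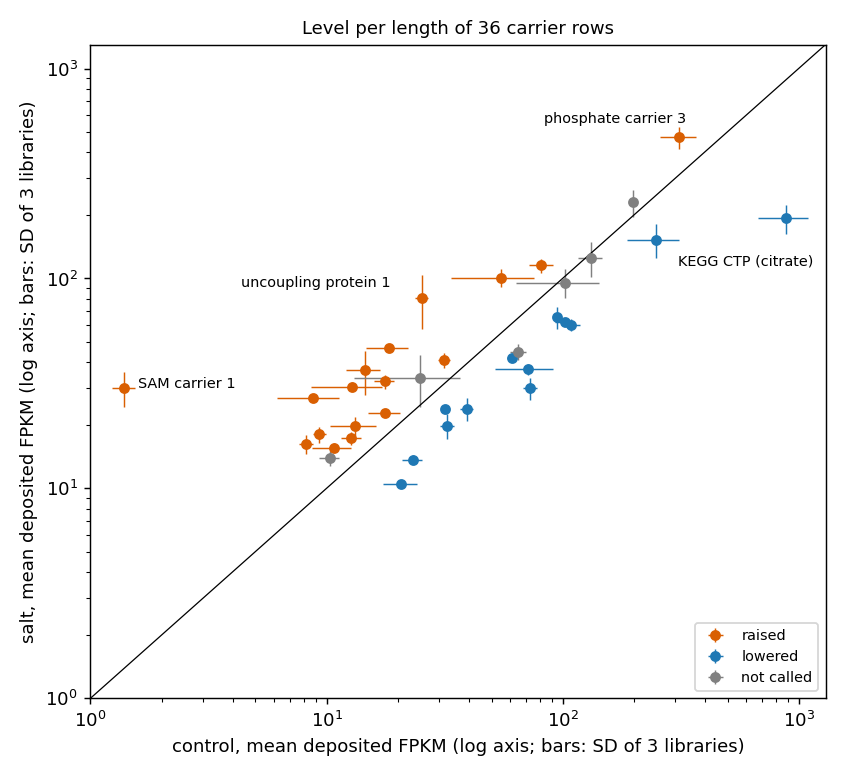
Mean deposited FPKM of 36 carrier rows in salt (y axis) against control (x axis), both on log axes, with bars of 1 SD over 3 libraries and colours for the edgeR call. The S-adenosylmethionine carrier (30.0 and 1.39 FPKM) lies furthest above the line of equality and the CTP row (193 and 883 FPKM) furthest below it.

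A pair of members was too rare to test and is named for animals. A row named ADP/ATP translocase 2, whose best match is a frog protein (TRINITY_DN2787_c0_g1), had 0, 0 and 5 counts in salt and 0, 22 and 1 in control. A row named phosphate carrier with an alligator protein as its match (TRINITY_DN8608_c0_g1) was counted 10 times in control replicate 2 and 0 times elsewhere, where a count of 0 allows up to 0.189 CPM. Most of the counts of both lay in control replicate 2.

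Some rows with a KEGG name of this family lack the domain and so are not among the 39. They were picked out with their values already known. Mitoferrin (TRINITY_DN5296_c3_g1), which brings iron into mitochondria, had 69.9, 79.4 and 80.6 CPM in salt and 142, 225 and 223 CPM in control (log2 fold change -1.36, SE 0.19, adjusted p = 0.00108 by edgeR), but its summed cluster changed by 0.02. SLC25A44 (TRINITY_DN4926_c3_g5), in mammals a carrier of branched-chain amino acids, had 13.6, 15.7 and 15.1 CPM in salt and 7.43, 9.20 and 7.11 CPM in control (0.90, SE 0.18, adjusted p = 0.00446). Its cluster changed by -0.22.

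Genes that work next to the carriers were listed by name: outer membrane porin, the mitochondrial pyruvate carrier of another family, the calcium uniporter, Tim proteins that insert carriers, ATP synthase, and matrix enzymes. Of 30 rows listed, 16 were tested, and 7 rose, 5 fell and 4 were not called. Over all 11438 tested genes 29.1% were raised and 28.7% lowered. These shares are also the background for the counts of Tim proteins and matrix enzymes below, which are small and were not tested as sets. Of 4 Tim proteins tested, 3 rose. Tim22 (TRINITY_DN5356_c0_g1), the channel that places carriers in the inner membrane, had 32.4, 35.3 and 36.5 CPM in salt and 8.44, 11.05 and 12.8 CPM in control (log2 fold change 1.69, SE 0.18, adjusted p = 0.00032 by edgeR). Tim10 (TRINITY_DN3201_c0_g1), which escorts carriers across the intermembrane space, rose by 0.93 (SE 0.11, adjusted p = 0.000573) and Tim13 (TRINITY_DN5181_c2_g1) by 0.64. Tim9 (TRINITY_DN3060_c0_g1), the partner of Tim10, had 40.1, 31.5 and 39.6 CPM in salt and 21.2, 36.3 and 37.3 CPM in control and was not called (0.23, adjusted p = 0.427). The cluster of Tim22 as a whole changed by 0.68.

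Both tested rows of ATP synthase subunit beta rose, TRINITY_DN5767_c1_g2 by 0.64 on the log2 scale (SE 0.15, adjusted p = 0.00828 by edgeR) and TRINITY_DN5767_c1_g1 by 0.71 (SE 0.24, adjusted p = 0.0382). They share a Trinity cluster, which in sum changed by 0.64 (adjusted p = 0.00943), so they may not be separate genes although both are counted among the raised rows. Of 7 tested rows of matrix enzymes, 2 rose, 3 fell and 2 were not called. NAD-dependent malic enzyme (TRINITY_DN5593_c0_g1), which makes pyruvate from malate, had 463, 734 and 412 CPM in salt and 164, 149 and 153 CPM in control (1.79, SE 0.23, adjusted p = 0.000675). The abundant malate dehydrogenase row (TRINITY_DN4152_c0_g3) rose by 1.19 (SE 0.23, adjusted p = 0.00423), while 2 rare rows of the same cluster, TRINITY_DN4152_c0_g2 and TRINITY_DN4152_c0_g1, were not called (-0.43 and 0.01). Serine hydroxymethyltransferase (TRINITY_DN5411_c1_g4) fell, with 642, 485 and 546 CPM in salt and 1047, 1235 and 1173 CPM in control (-1.05, SE 0.16, adjusted p = 0.00137), and its summed cluster changed by -0.52. The P protein of glycine decarboxylase (TRINITY_DN6007_c0_g1) changed by -0.92 (SE 0.16, adjusted p = 0.00243) and the H protein (TRINITY_DN4712_c2_g9) by -0.50 (SE 0.14, adjusted p = 0.0176). One row of the pyruvate carrier (TRINITY_DN4692_c2_g5) fell by 0.46 on the log2 scale, with -1.18 for its summed cluster, and the other was not called. The calcium uniporter (TRINITY_DN5555_c0_g4) changed by -0.64 (SE 0.16, adjusted p = 0.0109), but its summed cluster by only -0.091 (adjusted p = 0.463).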

How the data were processed

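RNA was extracted with TRIzol and libraries followed a Proton procedure, per the labels' protocols, while the series design names Illumina. No aligner or counter is given in the sources used here. For each assembled gene the authors deposited raw counts and FPKM in every library, per the file headers. They also deposited a log2 fold change, a p-value and an FDR from a test that is not named. The authors' deposited table marks 8 of the 39 rows as significant, against 18.7% of all its 22972 rows, which include those too rare to test here. The 8 had deposited log2 fold changes of at least 1.26 in size. SCaMC-1, at -0.96 with an FDR of 1.43e-05 by the authors' unnamed test, was not marked. The mark thus did not rest on the FDR alone and is not the threshold used here.

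Counts were tested with edgeR 4.0.16 in R 4.3.3: filterByExpr with a minimum count of 10, TMM factors, a quasi-likelihood fit on condition, and Benjamini-Hochberg adjustment over all 11438 genes at 0.05. Standard errors were derived from the log2 change and the F statistic. Expression levels are given as CPM after TMM scaling, where 1 count is worth 0.0436 to 0.0629 CPM; a count of 0 allows up to 3 counts, for counting error only. Effective length was estimated from counts, FPKM and library totals. Alternatives included DESeq2 1.42.0. The procedure was tested on simulated counts.

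Members and gene lists were chosen with earlier results of these data known. Rows described in detail include 19 fixed by rule: in each substrate group the most abundant row and that with the smallest p, every row of groups with 3 or fewer tested rows, and the 6 largest rises and 6 largest falls. The remaining members are given for completeness. Replicate numbers come from the labels, whose meaning is not explained there. Deviations of same-numbered salt and control libraries from their group means were correlated across genes (0.37, 0.16 and 0.22 for replicates 1, 2 and 3). Each value was over 0.1, but replicates 2 and 3 were not told apart. Salt replicate 2 had 0.16 and 0.10 with control replicates 2 and 3, and salt replicate 3 had 0.29 and 0.22. Pairing by number was therefore not settled, and the main fit did not use it. The fit with the replicate block was an alternative.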

Additional observations from a re-analysis of the deposited data

How the results depend on the processing

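No called carrier row changed sign when a library was left out or with replicates 2 and 3 alone. For these rows, whose groups did not overlap, that was largely fixed in advance. None changed sign under another scaling or filter, with DESeq2, with the replicate block or without short rows. When clusters were summed, 4 changed sign. DESeq2 called all 31 called carrier rows, and 1 more. With the replicate block 17 rose and 13 fell, and the block changed no other call among the carrier rows than that of the short ANT row. Leaving out 1 library gave 13 to 19 raised and 10 to 13 lowered carrier rows, and 22 of the 31 called rows were called in all 6 of these fits. Over all genes it gave 2772 to 3875 raised and 2678 to 3663 lowered, and in the partner list 6 to 8 and 4 to 5.

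With a minimum change of 1.5-fold, 9 carrier rows were raised and 5 lowered, against 1906 and 2051 of all genes and 4 and 2 of the partner list. Summing clusters left 5848 units tested, of which 1762 were raised and 1738 lowered. With library totals, 3 partner genes were lowered. Reversed values were -0.066 for folate transporter 1 (TRINITY_DN5222_c2_g11), -0.031 for ADNT1 (TRINITY_DN5145_c2_g1) and 0.49 for BAC2 (TRINITY_DN5558_c3_g1) with summed clusters, and 0.057 with library totals for DTC (TRINITY_DN5786_c1_g1), which ranged from -0.23 to 0.011 when 1 library was left out and was positive only without salt replicate 2; the cause was not tested. For the 19 rows named by rule, 309 of 323 alternative values kept sign and call. Whether depth limits the tested rows was not tested, and the pair named for animals fell below the filter.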
